A study of Mus musculus with 9 samples.

Results

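The retinas of mice that received an anti-C5 antibody into the vitreous at either dose, measured on 6 arrays, were compared as one group with the control retinas, measured on 3 arrays. These 9 arrays are the whole series. The animals were male C57BL/6 mice (C57BL/6J in the methods of the study), bought at 6 weeks of age, with no transgene or disease model. The antibody arrays comprise 3 at 1 μg and 3 at 10 μg, given in 1 μL, and all retinas were taken 7 days after the injection. The labels name the control arrays PBS, whereas the methods of the study name an IgG1 isotype antibody for the control eyes, so that the content of the control injection is uncertain and the groups are called control, 1 μg and 10 μg. The antibody is a chimera in which single-chain variable fragments from chicken are joined to mouse IgG1, directed at a domain of the C5 β chain. Each array holds RNA pooled from 4 retinas of different mice, and the number of mice behind each group is not clear. The p-values therefore measure only the spread between these pools.

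The members were found by 2 criteria. A probe set, the group of probes that reports 1 transcript, had to name exactly 1 gene in the annotation of the array platform, which 23521 of 41345 probe sets did, for 22180 genes. A difference counted as shared by both doses when all 6 antibody arrays lay on the same side of all 3 control arrays, which is called here no overlap. Values are on the log2 scale, where a difference of 1 is 2-fold. They ran from 1.35 to 13.74, with array medians between 5.88 and 6.04. The labelled tissue was borne out by its defining markers: the rod transducin Gnat1 had a mean of 13.51 in both groups, the rod arrestin Sag 12.55 in control and 12.54 in antibody arrays, and the cone opsin Opn1sw 11.81 and 11.89. Some arrays stood apart: control replicates 1 and 2 held more signal of lens genes than control replicate 3, control replicate 1 more of skeletal muscle genes than any other array, and 1 μg replicate 1 lay next to the control arrays in several gene lists.

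Complement is a cascade of plasma and tissue proteins that tag and lyse targets. Its pathways meet at C3 and C5. Cleavage of C5 releases the small fragment C5a, which acts through its receptors on leukocytes, microglia and other cells, and leaves C5b, which starts the membrane attack complex. In the retina, microglia make C1q, and Müller glia, which span the tissue, take up potassium and glutamate and respond to injury by making Gfap. An antibody in the vitreous can also be bound by Fc receptors on microglia and macrophages.

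No gene passed the adjusted test when both doses were pooled. Of the 23521 probe sets, 0 had an adjusted p under 0.05 by limma (0% of those tested), and the smallest adjusted p was 0.0919. At an unadjusted p under 0.05 there were 2943, of which 2274 were higher and 669 lower in the antibody arrays. Several other settings gave between 1 and 52 calls, and leaving out 1 μg replicate 2 gave the 52 and leaving out 1 μg replicate 1 gave 33. These are counts of probe sets, some of which repeat the same row of values. The groups did not overlap for 1293 probe sets that were higher (5.5% of those tested) and for 202 that were lower (0.859%). Their differences were small, with a median of 0.21 for the higher and -0.25 for the lower, and 28 higher and 3 lower ones reached 2-fold. No overlap also arises by chance: of the 84 ways to split 9 arrays into 6 and 3, 1 puts all 6 above and 1 all 6 below. The share of lower ones, 0.859%, was below a rate of 1 in 84. The share of higher ones among those with no overlap was 86.5%, and 64.9% after cyclic loess normalization between the arrays, with 801 higher and 433 lower. Over all probe sets the median difference was 0.02. The median standard error was 0.0844, and for 98.4% the 95% confidence interval excluded a 2-fold difference in either direction.

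The level of a gene and its type went with the direction. With probe sets sorted by mean level into 4 equal parts, 11.1% of the top part were higher with no overlap and 0.493% lower, against 2.02% and 0.85% of the bottom part. By type, 1156 of 18964 protein coding genes were higher with no overlap (6.1%) and 113 were lower (0.596%). For precursors of microRNAs the order was turned, with 2 of 478 higher (0.418%) and 29 lower (6.07%). Small nucleolar RNAs, which guide the modification of ribosomal RNA, had 12 of 80 higher (15%) and 4 lower (5%), and long noncoding RNAs had 51 of 1926 higher (2.65%) and 25 lower (1.3%). These shares are descriptions of the same arrays and were not compared by a test.

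**Figure D1:**
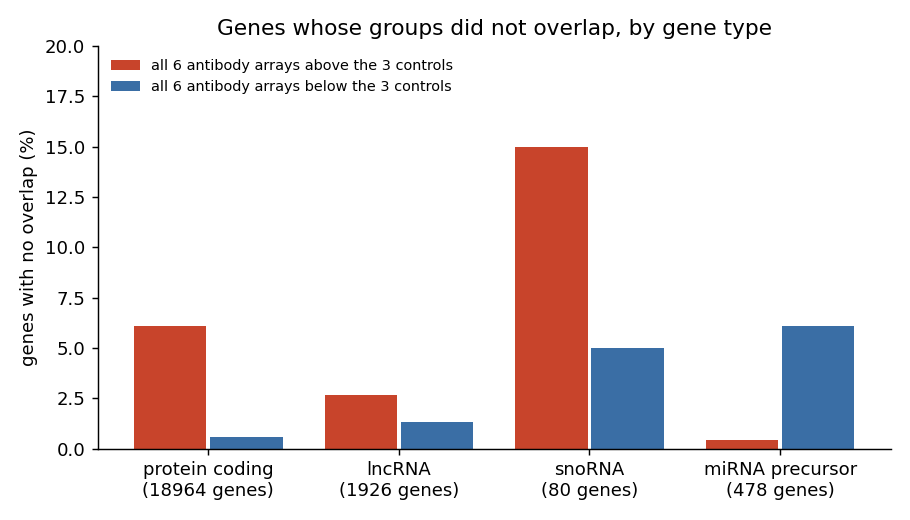
Share of genes (%, vertical axis) whose 6 antibody arrays all lay above (red) or all below (blue) the 3 control arrays, for 4 types of gene with the number of genes measured under each. Protein coding genes and small nucleolar RNAs were more often above, at 6.1% and 15%, and microRNA precursors more often below, at 6.07%.

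The lower gene with the smallest p was Coro6, which encodes a member of the coronin family of actin-binding proteins. Its log2 values were 7.33, 7.22 and 7.25 on the control arrays, 6.89, 6.79 and 6.78 at 1 μg, and 6.73, 6.82 and 6.88 at 10 μg. The groups were separated by a gap wider than the spread within either. The difference was -0.45 (standard error 0.0543, adjusted p = 0.0919 by limma), that is 1.37-fold lower. Syne1 encodes nesprin-1, a large protein that ties the nucleus to the cytoskeleton. On the probe set with the smallest p it was at 9.13, 9.15 and 9.21 in control arrays, 8.87, 8.81 and 8.84 at 1 μg, and 8.82, 8.66 and 8.66 at 10 μg, a difference of -0.39 (adjusted p = 0.151 by limma). The array carries 59 probe sets for Syne1. All 59 had a difference below 0, from -0.40 to -0.03, and 4 of them had no overlap, so the value above is from the end of that range. On the brightest probe set the difference was -0.33, and there 1 μg replicate 1, at 10.64, was level with the highest control array.

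The remaining lower genes of the 8, leaving the microRNAs for later, belong to no common group. 1700071K01Rik, a transcript of unknown function, had the largest difference of the 8. It was at 8.55, 8.73 and 8.72 in control arrays, at 8.11, 7.81 and 7.71 at 1 μg, and at 7.14, 7.27 and 7.28 at 10 μg, so that the 2 doses did not overlap each other either. The pooled difference was -1.11 (adjusted p = 0.151 by limma), and the difference between the doses, -0.64, did not pass the adjusted test (adjusted p = 0.365 by limma). It is the 1 probe set of 1 gene that passed at 10 μg alone (adjusted p = 0.0138 by limma) and passed in the pooled contrast when the 3 groups were fitted separately (adjusted p = 0.0339 by limma). Olfr1437, an olfactory receptor gene, was at 6.63, 6.73 and 6.86 in control arrays and between 5.52 and 6.39 in antibody arrays, a difference of -0.93. Magea3, of a family of genes expressed mainly in testis and tumours, was at 5.00, 5.32 and 5.58 in control arrays and between 4.29 and 4.72 in antibody arrays, a difference of -0.70.

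The higher gene with the smallest p was 2900092D14Rik, a long noncoding RNA. Its values were 5.67, 5.71 and 5.76 in control arrays, 6.16, 6.12 and 6.33 at 1 μg, and 6.20, 6.35 and 6.18 at 10 μg, a difference of 0.51 (adjusted p = 0.0919 by limma). Slc14a1, which encodes the urea transporter UT-B, was at 7.33, 7.47 and 7.53 in control arrays, 7.86, 7.88 and 7.99 at 1 μg, and 7.87, 8.14 and 7.92 at 10 μg, a difference of 0.50 (adjusted p = 0.151 by limma). For both genes the 2 doses lay at one level, above control. Pls3, which encodes the actin-bundling protein plastin-3, was at 6.55, 6.58 and 6.60 in control arrays and between 6.87 and 7.05 in antibody arrays, a difference of 0.37. Arhgef3, an exchange factor for the small GTPase RhoA, was at 6.38 to 6.39 in control arrays and 6.60 to 6.69 in antibody arrays. Its difference of 0.26 was small, and so was its spread.
Zmat5, a zinc finger protein of the minor spliceosome, was at 0.37 above control, the long noncoding RNA 2010320M18Rik at 0.37, 9130019O22Rik at 0.36, and the olfactory receptor gene Olfr1163, a dim probe set with a control mean of 2.86, at 0.45. Each of these had an adjusted p of 0.151 by limma and no overlap.

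**Figure D2:**
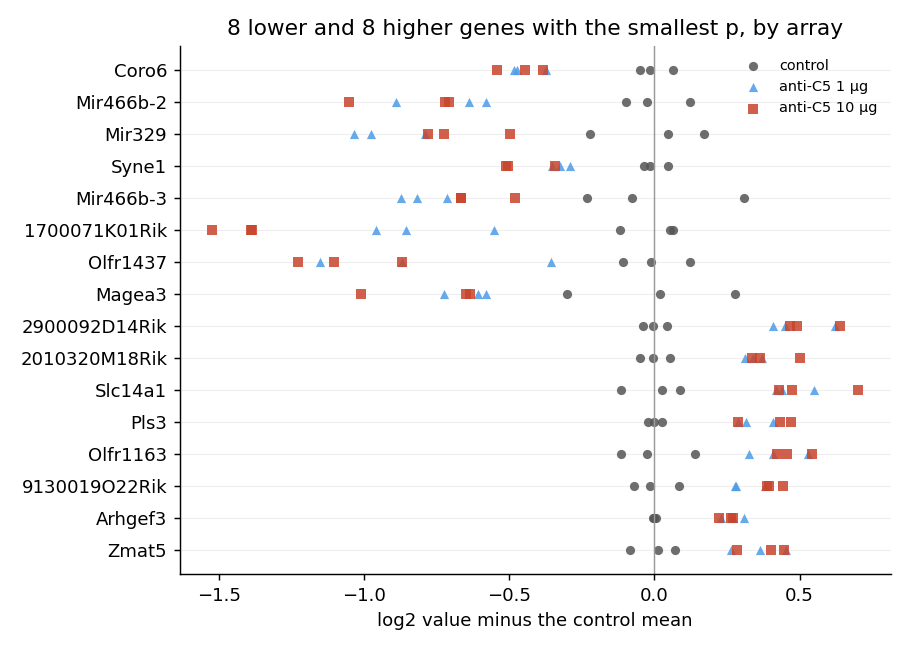
Log2 value minus the mean of the 3 control arrays (horizontal axis) for the 8 lower and the 8 higher genes with the smallest p (rows), with 1 symbol for each array. Control arrays (grey circles) cluster around 0, and the arrays at 1 μg (blue triangles) and 10 μg (red squares) lie on one side of them. The doses did not overlap each other for 1700071K01Rik (lower at 10 μg), Mir329 and Mir466b-3 (both lower at 1 μg) and 9130019O22Rik (higher at 10 μg).

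MicroRNA precursors made up 3 of the 8 leading lower genes. A microRNA is cut from a hairpin precursor, and pairs with messenger RNAs through its seed, bases 2 to 8 from its 5′ end. These arrays used total RNA, and a probe set on a precursor gene does not tell the mature microRNA from the precursor or the primary transcript. Of 478 precursor genes measured (483 when chosen by symbol instead of the RefSeq type), 343 were below control and 135 above, with a median difference of -0.12 against 0.02 over all genes. The median level of the precursors was 4.92, in the bottom part of the levels. The medians of the arrays around the control mean were 0.01, 0.00 and -0.01 in control, 0.05, -0.12 and -0.14 at 1 μg, and -0.12, -0.16 and -0.15 at 10 μg. Thus 1 μg replicate 1 lay with the control arrays, and the other 5 antibody arrays below them.

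A mature sequence from RefSeq was matched to 420 of the 478 precursors, and to 23 of the 29 that were lower with no overlap. Not all of these 23 are shown, and Mir299a of the cluster between Meg3 and Dio3 is among those left out. The following are a selection from them, with the seed in capitals. They are in the order of the Mir181 family, the let-7 family, the cluster between Meg3 and Dio3, and Mir30a.
miR-181a-5p: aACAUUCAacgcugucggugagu
miR-181b-5p: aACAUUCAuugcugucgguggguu
let-7c-5p: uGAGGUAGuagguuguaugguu
let-7d-5p: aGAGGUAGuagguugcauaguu
miR-329-3p: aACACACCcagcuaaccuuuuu
miR-300-3p: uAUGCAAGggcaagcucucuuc
miR-379-5p: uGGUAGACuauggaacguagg
miR-30a-5p: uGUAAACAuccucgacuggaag
In GRCm38.p6, the copy of miR-181a-5p in Mir181a-1 lies at chr1:137966468-137966490 and the copy in Mir181a-2 at chr2:38852741-38852763, close to miR-181b-5p of Mir181b-2 at chr2:38853845-38853868. Those of Mir379, Mir329 and Mir300 lie in this order on chromosome 12, at chr12:109709065-109709085, chr12:109713541-109713562 and chr12:109724363-109724384. They are not direct neighbours, as Mir299a, also lower with no overlap, lies between Mir379 and Mir329.

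The seed shared by miR-181a and miR-181b, ACAUUCA, was that of 6 measured precursors, 5 of them below control and 3 lower with no overlap, with a median of -0.32. Over all 478 precursors, 29 were lower with no overlap (6.07%). MicroRNAs of this family are abundant in retinal neurons. Mir181a-1 was at 6.04, 6.27 and 6.14 in control arrays, 5.81, 5.70 and 5.43 at 1 μg, and 4.91, 4.58 and 5.36 at 10 μg, a difference of -0.86 (adjusted p = 0.219 by limma). Every array at 10 μg was below every array at 1 μg. Mir181a-2 had a difference of -0.37 and Mir181b-2 of -0.26, the latter with values of 7.69 to 7.85 in control and 7.31 to 7.64 in antibody arrays. The seed GAGGUAG of the let-7 family, microRNAs of differentiated cells, was that of 12 precursors, of which 8 were below control and 4 above, with a median of -0.09. Only Mirlet7c-2 (-0.87) and Mirlet7d (-0.67) of these 12 had no overlap. Mirlet7d was at 5.43, 5.44 and 4.79 in control arrays and 4.38 to 4.75 in antibody arrays. The gap to control replicate 3 was therefore narrow. The let-7 family was thus mixed, with 2 members apart from the rest, whereas all 5 precursors with the seed GUAAACA of miR-30a were below control, with a median of -0.32.

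The microRNA genes that RefSeq places between Meg3 and Dio3 on chromosome 12 form an imprinted cluster that is transcribed in neurons. This group was chosen after the values were seen. Of its 43 measured precursors 40 were below control, and the median was -0.32. No overlap was found for 4 of the 43, against 29 lower ones of all 478 precursors (6.07%). The arrays at 10 μg lay at -0.48, -0.50 and -0.52, those at 1 μg at 0.05, -0.25 and -0.26, and the control arrays at -0.08, 0.01 and 0.04. All 3 arrays at 10 μg were therefore below all at 1 μg, and 1 μg replicate 1 was level with control. Mir329, the member with the smallest p, was at 7.71, 8.10 and 7.98 in control arrays, 6.96, 7.14 and 6.89 at 1 μg, and 7.15, 7.43 and 7.21 at 10 μg, a difference of -0.80 (adjusted p = 0.151 by limma). Unlike in the cluster's median, every array at 1 μg was below every array at 10 μg for Mir329. Its difference between the doses did not pass the adjusted test (adjusted p = 0.489 by limma). Mir300 had a difference of -0.87, Mir379 of -0.45 and Mir299a of -0.18, and Mir154 was the other way, at 0.26.

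Precursors of the Mir466, Mir467, Mir669 and Mir297 families, most of which lie as repeated hairpins in an intron of Sfmbt2, had 19 of 24 below control, with a median of -0.37. Of the 24, 6 had no overlap, against 29 lower ones of all 478 precursors (6.07%). Mir466b-2 was at 5.52, 5.59 and 5.74 in control arrays, 5.04, 4.73 and 4.98 at 1 μg, and 4.91, 4.90 and 4.57 at 10 μg, a difference of -0.77 (adjusted p = 0.0919 by limma). It has 7 probe sets, which hold only 2 distinct rows of values, so that its repeats are not separate measurements. The values above are those of 6 of them, and on the remaining probe set the difference was -0.48 with overlapping groups. Mir466b-3 was at -0.70, Mir669m-1 at -0.98 and Mir466g at -1.43, the lowest difference of any precursor. These hairpins are near copies of one another, so signal may be shared between them. The 388 precursors outside these groups, and outside the Mir181 and Mir30 families and let-7, had a median of -0.09, with 266 below control and 13 lower with no overlap. Mir101c, at 4.59 to 4.90 in control arrays and 5.46 to 7.05 in antibody arrays, was one of the 2 precursors that were higher with no overlap and had the highest difference, 1.496.

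**Figure D3:**
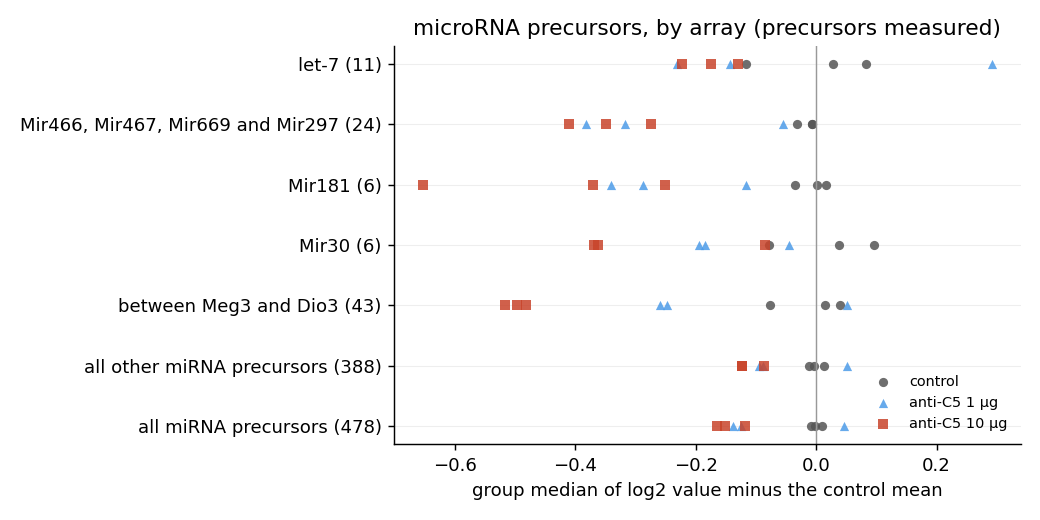
Median over each group of microRNA precursors of the log2 value minus the control mean (horizontal axis), with 1 symbol for each array and the number of precursors in brackets. The 43 precursors between Meg3 and Dio3 were at -0.48 to -0.52 on the arrays at 10 μg, and 1 μg replicate 1 lay near the control arrays in most rows.

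Lists of small nucleolar RNAs, ribosomal proteins and respiratory chain subunits had medians above 0. For reading the lists, 58.8% of all genes were above control, and 5.56% were higher and 0.816% lower with no overlap. The share higher was 11.1% in the top part by level, where the median levels of several lists lie. Among these were ganglion cells (8.33), bipolar cells (8.86), Müller glia (9.07) and antioxidant defence (8.43). Small nucleolar RNAs were taken by symbol here, which gave 73, against 80 by the RefSeq type above. Of the 73, 50 were above control, at a median difference of 0.17, and 12 were higher (16.4%) and 3 lower (4.11%) with no overlap. Of the 80, 50 were above, and the median was 0.11. Snord13, which guides acetylation of the 18S ribosomal RNA, was at 5.82, 5.68 and 5.56 in control arrays, 6.06, 6.61 and 6.05 at 1 μg, and 6.52, 6.66 and 6.42 at 10 μg, a difference of 0.70. Snord22 was at 0.42, and Snora30 was the other way, with 8.37 to 8.56 in control and 7.75 to 8.26 in antibody arrays, at -0.50. The 3 had adjusted p-values of 0.164 to 0.169 by limma. The genes in whose introns small nucleolar RNAs lie were not on one side: 7 of 13 were above control, at a median difference of 0.05 and no gene without overlap, and Snhg11 was at -0.44.
Of 63 genes for cytosolic ribosomal proteins 52 were above control, at a median difference of 0.15 and 6 higher with no overlap (9.52%). Rps19 was at 8.06, 7.91 and 7.99 in control arrays and 8.31 to 8.80 in antibody arrays, and Rpl7 at 6.93 to 7.17 and 7.23 to 7.53. Of 77 nuclear genes for subunits of the respiratory chain 62 were above control, at a median difference of 0.08 and 7 higher with no overlap (9.09%). The shares of both lists are above that of all genes. The median level of the respiratory list, 8.12, lies in the top part by level, and its share is below the 11.1% there. That of the ribosomal list, 7.32, lies in the second highest part, and its share is above the 6.94% there. Among the respiratory genes were Atp5g2 (0.21), a subunit of the ATP synthase, and Cox7a2 (0.25), of cytochrome oxidase. The list of the respiratory chain was at 0.01 on 1 μg replicate 1, inside the control range of -0.02 to 0.03, and at 0.09 to 0.15 on the other antibody arrays. For the small nucleolar RNAs and the ribosomal proteins, 1 μg replicate 1 had a median of 0.03 and 0.02, within or next to the control arrays, while the other 5 antibody arrays were at 0.14 to 0.20 and 0.17 to 0.20. Without this array the medians were 0.16 for the ribosomal proteins, 0.21 for the small nucleolar RNAs and -0.14 for the microRNA precursors.

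Among neurons, the genes of ganglion cells, whose axons form the optic nerve, had the highest list median, though not the highest share without overlap. All 13 measured ones were above control, by 0.01 to 0.41, with a median of 0.22. Of the 13, 2 had no overlap (15.4%, against 5.56% of all genes and 11.1% of the top part by level). Pou4f1, a transcription factor of these cells, was at 7.58, 7.42 and 7.71 in control arrays, 7.85, 7.86 and 7.99 at 1 μg, and 7.85, 7.94 and 7.96 at 10 μg, a difference of 0.34 (standard error 0.0691, adjusted p = 0.164 by limma). Sncg, which encodes γ-synuclein, was at 0.41, but 1 μg replicate 1, at 9.59, fell within the control range of 9.32 to 9.60. The neurofilament gene Nefl was at 0.22, with the same array again in the control range, and Nefh at 0.15 without overlap. The list median on 1 μg replicate 1 was 0.08, inside the control range of -0.04 to 0.09, and 0.20 to 0.35 on the other antibody arrays. Rbpms, a defining marker of all ganglion cells, was at 8.38 in control and 8.39 in antibody arrays, a difference of 0.01. In these bulk samples, more cells of a type and more RNA per cell cannot be told apart.

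Genes of amacrine and horizontal cells, the interneurons that carry signals sideways, had 14 of 16 above control, at a median difference of 0.13 and 3 with no overlap (18.8%): Slc32a1 (0.22), the transporter that loads GABA and glycine into vesicles, and the horizontal cell factors Onecut2 (0.20) and Onecut1 (0.17). For bipolar cells 10 of 13 were above, with a median of 0.08 and no overlap for 3 (23.1%): Scgn (0.36), Bhlhe23 (0.20) and Lhx4 (0.12). Scgn, a calcium sensor of cone bipolar cells, was at 8.79, 9.05 and 8.94 in control arrays and 9.07 to 9.49 in antibody arrays, so the gap was narrow. Of the neuron lists, those of photoreceptors had the medians nearest 0. Rod genes had 8 of 18 above control, a median of 0.00 and differences of -0.07 to 0.22, and the sign of their median turned with the scaling, from -0.03 after cyclic loess to 0.02 after median centring. Cone genes had 9 of 13 above control, at a median difference of 0.02. Arr3, the cone arrestin, was at -0.26, with 10.09 to 10.25 in control and 9.65 to 10.19 in antibody arrays. Neither it nor any other cone gene was without overlap.

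Of 12 genes of Müller glia 10 were above control, at a median difference of 0.10 and 2 with no overlap (16.7%). Kcnj10, the potassium channel through which these cells clear potassium, was at 8.62, 8.60 and 8.61 in control arrays, 8.73, 9.08 and 8.84 at 1 μg, and 8.91, 9.13 and 9.10 at 10 μg, a difference of 0.36. Slc1a3, the glial glutamate transporter, had a control mean of 8.92 and was at 9.03 to 9.41 in antibody arrays, a difference of 0.32 without overlap. Glul, which encodes the glutamine synthetase that defines these cells, was at 12.02 in both groups.
Mlc1, a membrane protein of glial endfeet, and Ndp, which encodes the Müller cell ligand norrin, were chosen after their values were seen. They were at 0.37 and 0.32 with no overlap, with adjusted p-values of 0.156 and 0.158 by limma.

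The genes of gliosis and retinal injury had 13 of 17 above control, at a median difference of 0.19, and 5 were higher with no overlap (29.4%, against 5.56% of all genes). Gfap, the intermediate filament of reactive glia, was at 6.55, 6.23 and 6.34 in control arrays, 7.40, 6.80 and 7.25 at 1 μg, and 7.24, 7.53 and 6.57 at 10 μg. Replicate 3 at 10 μg exceeded the highest control array by only a small step. The difference was 0.76 (standard error 0.20, adjusted p = 0.202 by limma), that is 1.69-fold. Osmr, the receptor for oncostatin M, was at 7.02 to 7.20 in control and 7.38 to 7.89 in antibody arrays (0.51), and the transcription factor Cebpd at 5.16 to 5.41 and 5.54 to 6.09 (0.53). The metallothionein Mt1 was at 0.32 and Stat3, which relays such cytokine signals, at 0.21. Over the whole list, 1 μg replicate 2 and 10 μg replicate 1 had medians of 0.01 and 0.02, inside the control range of -0.02 to 0.05, and the other 4 antibody arrays had 0.12 to 0.39.

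Microglia and macrophage genes had 16 of 19 above control, at a median difference of 0.14, and 6 were higher with no overlap (31.6%). Ly86, whose product binds a Toll-like receptor homologue, was at 7.07, 7.16 and 7.15 in control arrays, 7.73, 7.52 and 8.07 at 1 μg, and 7.61, 8.35 and 7.65 at 10 μg, a difference of 0.69 (adjusted p = 0.18 by limma). Csf1r, the receptor on which microglia depend, was at 5.97 to 6.08 in control and 6.27 to 6.79 in antibody arrays (0.43), and the lysosomal protease Ctss at 0.39. The Fc receptor chain Fcer1g (0.30) overlapped by no array, though 1 μg replicate 2, at 6.61, was level with the highest control array. Cx3cr1, the fractalkine receptor, was at 0.17. A pair of defining markers were near control, Tmem119 at 0.02 and Adgre1, which encodes F4/80, at -0.07. The list median was above that of all 3 control arrays on every antibody array, at 0.09 to 0.24 against -0.04 to 0.04. Over all settings, each single array left out among them, the median stayed between 0.12 and 0.19 for microglia, 0.15 and 0.24 for gliosis and 0.18 and 0.25 for ganglion cells.

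Complement genes lay on both sides of control. Of 31 measured genes 12 were above control and 19 below, with a median of -0.01, which was 0.03 with dim probe sets left out and 0.04 without control replicate 1, and 1 without overlap (3.23%). That gene was C1qb, a chain of C1q, at 7.10, 6.96 and 7.03 in control arrays, 7.30, 7.18 and 7.54 at 1 μg, and 7.22, 7.77 and 7.49 at 10 μg, a difference of 0.38 (adjusted p = 0.259 by limma). C1qc was at 0.26 and C1qa at 0.10, and Cd59a, which blocks the membrane attack complex, at 0.27. The transcript of the antibody's target, Hc, which encodes C5, was dim at 4.43 to 4.47 in control and 4.11 to 4.57 in antibody arrays, with a difference of -0.03 (95% confidence interval -0.24 to 0.18).
The C5a receptor C5ar1 was at 4.86, 4.96 and 5.04 in control arrays, 5.03, 4.96 and 4.96 at 1 μg, and 4.22, 4.63 and 4.75 at 10 μg, so that the 3 arrays at 10 μg were the lowest of all 9 and those at 1 μg lay within the control range. Its pooled difference of -0.20 (-0.56 to 0.17) joins 0.03 at 1 μg and -0.42 at 10 μg, and the difference between the doses did not pass the adjusted test (adjusted p = 0.416 by limma). The second receptor C5ar2 was at -0.02 (-0.17 to 0.14), on either side of 0 between settings. Of the other mediators on the list, the growth factor Vegfa was at -0.10, Ccl2 at -0.05, Il6 at -0.06, Csf2 at -0.19 and Icam1 at 0.21, each with overlapping groups. These intervals bound differences of transcripts, not of proteins.

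Among 26 cytokines, chemokines and adhesion molecules 12 were above control, at a median difference of -0.02, which was 0.17 with dim probe sets left out. No overlap was found for 2 of the 26 (7.69%), Cxcl12 (0.25) and Cx3cl1 (0.18), the chemokine of neurons that Cx3cr1 binds. Interferon response genes had 6 of 15 above control, at a median difference of -0.07, and 0.05 with dim probe sets left out. Of 9 Fc receptor genes 6 were above, with Fcer1g the only 1 without overlap (11.1%). The VEGF and angiopoietin axis had 10 of 17 above and 1 without overlap (5.88%), with a median of 0.04, and for endothelium and pericytes it was 13 of 16 with 2 without overlap (12.5%), among them Rgs5, a marker of pericytes, at 9.35 to 9.54 in control and 9.69 to 9.99 in antibody arrays (0.35).

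Antioxidant defence had 14 of 16 genes above control, at a median difference of 0.18 and 4 with no overlap (25%). These were the superoxide dismutase Sod1 (0.26), the thioredoxin Txn1 (0.21), Nfe2l2 (0.20), which encodes the factor NRF2, and Gclm (0.11), of glutathione synthesis. Txn1 was at 9.19, 9.25 and 9.31 in control arrays, 9.39, 9.50 and 9.39 at 1 μg, and 9.42, 9.49 and 9.55 at 10 μg, so its groups were close but apart. Gpx3, a secreted glutathione peroxidase, was at -0.98 with values from 5.11 to 7.67 that ran through all groups. Apoptosis genes had 17 of 24 above control, at a median difference of 0.04 and no overlap for 3 (12.5%): the pore-forming Bak1 (0.22), the caspase Casp6 (0.21) and the survival gene Bcl2l1 (0.17). For the unfolded protein response it was 12 of 14, with a median of 0.09 and 1 without overlap (7.14%), the chaperone Hspa5 (0.16). Genes of iron handling had 10 of 12 above control and 1 without overlap (8.33%), the hepcidin regulator Hfe (0.26). Immediate early genes were at a median of -0.01, with 1 of 13 without overlap (7.69%), Btg2 (0.18), and the circadian clock at 0.03 with none. These medians turned sign with the scaling, to 0.01 after median centring and -0.02 after cyclic loess, respectively.

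**Figure D4:**
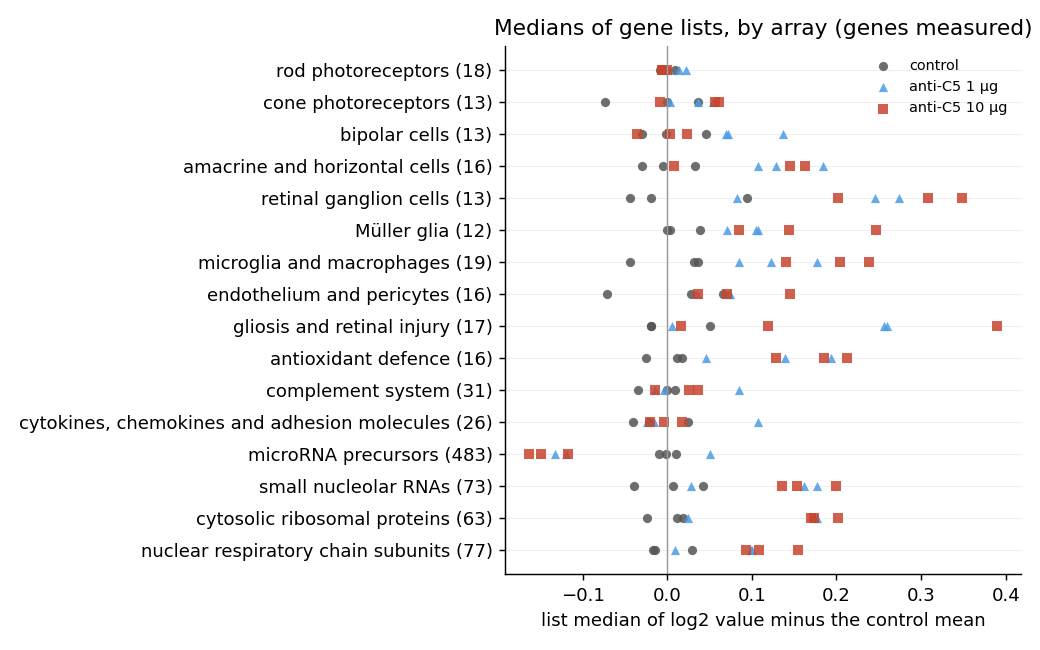
Median over each gene list of the log2 value minus the control mean (horizontal axis), with 1 symbol for each array and the number of genes measured in brackets. Ganglion cell, microglia, Müller glia and antioxidant lists had most or all antibody arrays to the right of the control arrays, rod, cone and complement lists did not, and microRNA precursors lay to the left on all antibody arrays but 1 μg replicate 1.

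Tissue next to the retina differed between the pools, for lens and skeletal muscle most of all between the control pools. The 22 lens genes had a median of -0.42, with 18 below control and none without overlap. The 3 control arrays lay at 0.40, 0.61 and -1.07 around their mean, and the antibody arrays between -0.999 and -0.056. Mip, the water channel of lens fibres, was at 8.68, 9.54 and 6.45 in control and 6.24 to 7.07 in antibody arrays. All 14 skeletal muscle genes were below control, with a median of -0.56, but control replicate 1 was at 1.32 and the other 2 control arrays at -0.94 and -0.46. Without control replicate 1 the muscle median was 0.09, and without control replicate 2 it was -1.13 and that of lens -0.25. The retinal pigment epithelium had 8 of 15 above control, at a median difference of 0.04, which was 0.18 without control replicate 2 and -0.01 without 10 μg replicate 2. The 9 genes of cornea and conjunctiva had a median of 0.01, with 10 μg replicate 1 at 0.71. The part of these tissues in the other differences was not tested. Collagen chains had 13 of 44 above control, at a median difference of -0.06 and Col4a1 at -0.50 and Col4a2 at -0.46, both highest on control replicates 1 and 2, the arrays with the highest lens signal.

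**Figure D5:**
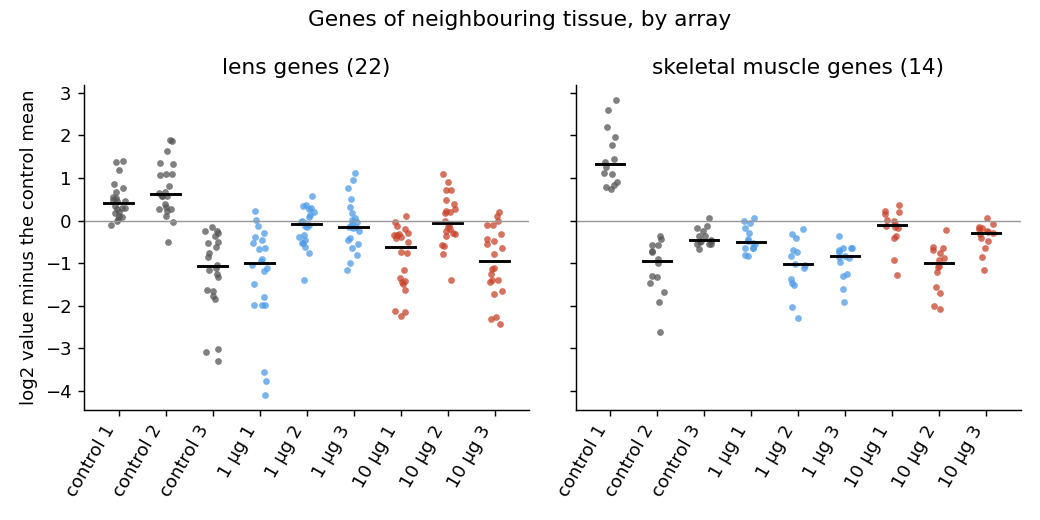
Log2 value minus the mean of the 3 control arrays (vertical axis) of each lens gene (22, left) and skeletal muscle gene (14, right) on each of the 9 arrays, with the median as a bar. Control 1 and 2 were the highest for lens, at 0.40 and 0.61, and control 1 stood alone for muscle, at 1.32.

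The largest shared differences belonged to genes of repeated families. Of the 28 probe sets that were higher without overlap and at least 2-fold, 18 were those of Srsy, Astx5 and 6 type 1 vomeronasal receptors, and the 28 stand for 18 genes. None passed the adjusted test. Srsy is a repeated gene of the Y chromosome, and all 7 of its probe sets were among them, at 1.31 to 1.85. On the 1 with the lowest standard error of the 7 it was at 5.10, 5.16 and 5.31 in control arrays, 6.41, 6.12 and 6.87 at 1 μg, and 7.45, 7.47 and 6.55 at 10 μg. Vmn1r94, a pheromone receptor gene, was at 5.14, 5.64 and 5.45 in control arrays, 6.98, 6.58 and 7.75 at 1 μg, and 7.80, 8.82 and 7.19 at 10 μg, a difference of 2.11 (adjusted p = 0.158 by limma). In both, 1 μg replicate 2 was the lowest antibody array. Of the 176 type 1 vomeronasal receptor genes 128 were above control. Without overlap 17 were higher (9.66%, against 5.56% of all genes) and 0 lower. Of 109 type 2 genes 69 were above, with 0 without overlap in either direction. The median levels of both lists, 3.43 and 3.45, lie in the bottom part by level, where 2.02% were higher without overlap. Near-identical copies share probes in such families, so these values cannot be assigned to 1 copy. RefSeq places 37 of the probe sets, for 17 genes, on the Y chromosome. Of the 37, 13 were higher without overlap, for 5 genes, against 5.5% of all probe sets. Of these 13, 7 were those of Srsy. Some of the 37 repeat the same row of values, so they are not separate measurements. Besides Srsy, the genes higher without overlap included Gm20815 (1.46) and Gm20816 (1.13). Eif2s3y, a translation factor subunit also encoded there, was at 9.05, 9.19 and 9.12 in control arrays and 8.44 to 8.89 in antibody arrays, a difference of -0.46, and was the 1 lower without overlap. Uty was at -0.02 and Kdm5d at -0.08, with overlapping groups.

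The 2 doses were also set side by side, each against the same control arrays. In the fit of 3 groups, the number of probe sets of 1 gene that passed was 0 at the lower dose and 1 at the higher dose. Between the doses it was 0, and 2451 had an unadjusted p below 0.05. With each dose at an unadjusted p below 0.05 in the same direction there were 789 higher and 142 lower probe sets. Coro6 was at -0.44 at 1 μg and -0.46 at 10 μg, 2900092D14Rik at 0.49 and 0.53, Gfap at 0.78 and 0.74, and Pou4f1 at 0.33 and 0.35. These genes were chosen on the pooled values, and both doses share the control arrays. For lists, ganglion cell genes had medians of 0.19 at 1 μg and 0.26 at 10 μg, microglia 0.12 and 0.21, Müller glia 0.06 and 0.15, microRNA precursors -0.07 and -0.15, and bipolar cells 0.09 and 0.02. No list was tested between the doses.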

How the data were processed

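The study's methods give total RNA from retinas pooled by 4, labelled with random hexamers and hybridised to Affymetrix Mouse Gene ST arrays, 1 array for each of 9 pools. The values the authors deposited are on the log2 scale and come from RMA, run in Affymetrix Expression Console 1.1, which subtracts background, gives the arrays 1 common distribution and summarises each probe set. The images were not used here. Because of the common distribution, a shift shared by most genes would be removed. Array values have no read depth, and the number of arrays limits the precision.

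Groups came from the sample labels. Genes came from the platform annotation. RefSeq tables of GRCm38.p6 gave gene types, microRNA sequences and which genes neighbour each other. The 6 antibody arrays were compared with the 3 control arrays in limma 3.58.1 (R 4.3.3) on 25341 named probe sets, with Benjamini-Hochberg adjustment over these at 0.05. A 3-group fit gave each dose. Gene lists used 1 probe set per gene, the brightest, and were described by counts and medians without a test. The smallest p an exact permutation of single values allows is 0.0238. The 1820 probe sets that name several genes and the 16004 without a name were left out of the counts. The steps were tested on simulated data.

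The members and lists were chosen with earlier results of these data known. The rule for named genes takes up to 8 per direction with the smallest p, 3 per list with the smallest p, and 9 complement, cytokine and growth factor genes. List members without overlap, genes at least 2-fold apart, the defining markers, the microRNA groups and their members were named after their values were seen, as were other genes outside the rule. Alternatives comprised other fits, scaling, filters, the replicate number as a block and omission of each single array. The counts without overlap under these were added after seeing the data.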

Additional observations from a re-analysis of the deposited data

Results flagged for a closer look

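Of 174 groups of 6 antibody arrays examined, 1 for each named gene or list, 12 held 1 array set apart from the other 5 by Dixon's ratio above its 95% critical value. Chance flags about 1 in 20 groups. Replicate 1 at 1 μg was apart for 4 lists: its median was 0.0502 for microRNA precursors, where the others were at -0.16 to -0.12, 0.0276 for small nucleolar RNAs (others 0.14 to 0.20), 0.0241 for cytosolic ribosomal proteins (others 0.17 to 0.20), and 0.107 for cytokines, chemokines and adhesion molecules (others -0.02 to 0.02). Replicate 1 at 10 μg was apart for the list of cornea and conjunctiva, with a median of 0.711 against -0.13 to -0.01. It was apart as well for 2 genes of that list, Aldh3a1 at 6.53 (others 5.15 to 5.44) and Krt13 at 6.68 (others 5.51 to 5.88), and for 2010320M18Rik at 7.29 (others 7.11 to 7.17) and Hc at 4.11 (others 4.47 to 4.57). Magea3 was at 4.29 on 10 μg replicate 3 (others 4.57 to 4.72) and Cxcl12 at 7.50 on 1 μg replicate 2 (others 7.32 to 7.38). The endothelium and pericyte list had a median of 0.145 on 10 μg replicate 2 (others 0.03 to 0.07). What sets these arrays apart was not tested.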

How the results depend on the processing

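The count of calls was 0. Under other settings it was 8 with array weights, 6 after median centring, 2 with dim probe sets left out and 1 with 3 groups in the fit. Each of these calls also had no overlap. That is no separate support, because so small a p with 9 arrays rarely leaves an overlap. The count of calls was 8 at an adjusted p under 0.1, and 0 to 52 when single arrays were left out (7 without control replicate 3, 33 without 1 μg replicate 1, 52 without 1 μg replicate 2). For the latter, no overlap was judged only on the arrays kept. All these counts are of probe sets with repeated rows of values kept, and the 8 at 0.1 hold only 3 distinct rows, for 3 genes. The count of calls stayed at 0 with an intensity trend, a robust prior, no moderation, cyclic loess, unnamed probe sets kept, several-gene probe sets removed and identical ones counted once. The replicate number as a block gave 0 calls. Once the mean of its group was subtracted from each probe set, same-numbered arrays of different groups correlated at -0.06 to 0.11. The numbers were therefore not taken as pairs. Without that subtraction, all arrays correlated at 0.971 to 0.991. Counts without overlap were 801 higher and 433 lower after cyclic loess and 89 lower with dim probe sets left out, and with single arrays left out 1437 to 2456 higher and 236 to 877 lower, where fewer arrays make no overlap easier. For 133 genes of the naming rule, the differences kept their sign under these settings except for 4: C5ar2 (0.003058 with array weights, 0.004958 after median centring, -0.0486 to 0.0190 with single arrays left out), Adgre1 (-0.106 to 0.00658 with single arrays left out, above 0 without control replicate 2), the erythrocyte gene Slc4a1 (-0.154 to 0.0384 with single arrays left out, above 0 without control replicate 2) and Hc (-0.0574 to 0.0363 with single arrays left out, above 0 without 10 μg replicate 1). Of 40 list medians, 17 lay on both sides of 0 over the settings, among them those of rods (-0.03 to 0.02), complement (-0.02 to 0.04), cytokines (-0.04 to 0.17), interferon response (-0.10 to 0.05), Fc receptors (-0.01 to 0.09), olfactory receptors (-0.05 to 0.11) and type 2 vomeronasal receptors (-0.12 to 0.14). The cause of these shifts was not tested. Coro6 had an adjusted p of 0.0176 to 0.398 over 21 settings.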
